A study of Canis lupus familiaris with 13 samples.

Results

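The 5 metastatic tumours were described as 1 group, by how far each transcript differed among them. They were untreated primary soft tissue sarcomas of dogs, biopsied from animals that the labels place in the metastatic disease group, and are called tumours 1 to 5 after their replicate numbers. For every probe set with 1 gene symbol (29254 of the 43035 on the array, Affymetrix controls left out), the mean and the standard deviation (SD) over the 5 tumours were computed on the log2 intensity scale. Of these, 8283 probe sets for 5435 genes had a mean of at least 8. The 300 of them with the largest SD form the variable set, and the 300 with the smallest SD form the stable set, each 3.62% of the 8283. The variable set named 225 genes (4.14% of 5435), the stable set 289 (5.32%), and 0 genes were in both. Membership was chosen by these same values, so the spread of the members is a description and carries no test. The labels give no breed, sarcoma subtype or anatomical site, and they do not say whether each biopsy came from a different dog. The series also holds 8 tumours without metastasis over at least 1 year, whose levels are not compared here.

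Soft tissue sarcomas are malignant tumours of mesenchymal lineage, a family that joins tumours resembling fibroblasts, nerve sheath, fat, muscle and vessel wall under 1 name. A biopsy also holds cells that are not tumour cells, among them macrophages, vessels and remnants of the invaded muscle or fat. Transcripts of a lineage programme, of a matrix programme or of infiltrating cells can therefore differ widely between tumours of 1 diagnosis, while transcripts of the ribosome or of basic metabolism are made by nearly every cell. In bulk RNA, more cells of a type and more RNA per cell cannot be told apart.

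Each tumour was read on 1 array, so the error of a single value was not measured directly. The closest measure was a group of 12 probe sets for bacterial transcripts added as controls. Their SD over the 5 arrays had a median of 0.32 (0.098 to 0.38). Their mean was 7.99, 8.75, 8.44, 8.44 and 8.64 in tumours 1 to 5, so part of that SD was a shift of the group between arrays. Array medians lay between 6.87 and 6.93. The 3′ minus 5′ difference of ACTB, a measure of RNA integrity and labelling, was 1.99, 2.87, 1.40, 1.46 and 2.08 in tumours 1 to 5, and that of GAPDH was 0.42, 0.92, 0.45, 0.46 and 0.74. Both were highest in tumour 2. As a mark of low signal, the 95th percentile of 64 reporter probe sets was used, nearly all of them for targets that dog cells lack, and it lay at 7.10. A value not above it is not told apart from such probe sets.

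The variable set had a median SD of 1.41 (1.15 to 3.93), against 0.35 over all 8283 probe sets and 0.064 (0.016 to 0.081) in the stable set. From its lowest to its highest tumour a variable probe set spanned a median of 3.49 (11.2-fold), and 104 of 300 spanned at least 4. The stable probe sets spanned a median of 0.15 (1.11-fold). Both sets lay at like levels, with median means of 8.96 and 8.70 against 8.91 over all. Every stable probe set had a smaller SD than every one of the 12 control probe sets, whose SDs include the shift between arrays given above. At the rank limits the values were continuous: PSAT1, PRSS23 and DKK3 just inside the variable set had SDs of 1.150, 1.150 and 1.149, and PTS, GM2A and a further probe set of RGS10 just outside had 1.149, 1.148 and 1.146. At the lower limit GNL1, BABAM2 and TROAP lay inside at 0.0808 and LOC608162, BRD2 and CCDC51 outside at 0.0809, 0.0811 and 0.0812.

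**Figure D1:**
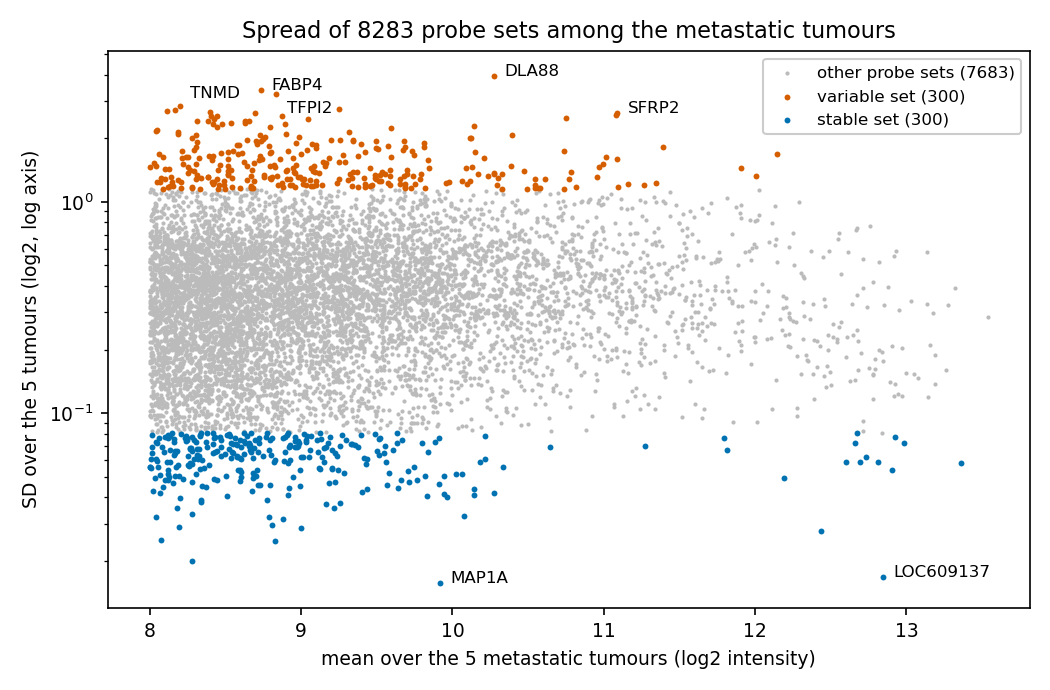
SD over the 5 metastatic tumours (log2, log axis) against the mean (log2 intensity) for 8283 probe sets. The 300 variable probe sets (orange) start at an SD of 1.15 and the 300 stable ones (blue) end at 0.081, and both run from a mean of 8 upwards, as the rule requires.

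The spread was not even over the tumours. Tumour 4 was the highest of the 5 for 123 of the 300 variable probe sets, tumour 3 for 75, tumour 2 for 39, tumour 5 for 38 and tumour 1 for 25. Tumour 2 was the lowest for 140, tumour 1 for 77, tumour 4 for 41, tumour 5 for 29 and tumour 3 for 13. Part of this was general. Over all 8283 probe sets tumours 1 to 5 were highest for 18.7%, 17.3%, 14.6%, 27.1% and 22.3%, and lowest for 19.4%, 32.5%, 19.4%, 12.2% and 16.5%. The counts below of genes highest or lowest in a tumour are to be read beside these shares. Tumour 2, which was lowest most often, also had the largest 3′ minus 5′ differences of ACTB and GAPDH, and their part in this was not tested. Over all 8283 probe sets the lowest correlation between 2 tumours was that of tumours 2 and 4 (0.69) and the highest that of tumours 3 and 4 (0.84), both across probe sets, which are not independent replicates.

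The working description of the variable set as genes switched on in only some tumours held for a minority of it. The 5 values of a probe set were sorted and split at their largest gap. A gap of at least 2 (4-fold) was called a step, and the step was called on/off where every value below it was not above 7.10. Steps were found in 115 of the 300 (38.3%, 87 genes), where 1.51% of all 8283 had 1, and on/off steps in 57 (19%, 44 genes), where the share over all was 0.712%. Since the same spread chose the set, nothing is read from these shares. Of the on/off steps 41 were high in 4 tumours, 14 in 3, 2 in 2 and 0 in 1, and a mean of at least 8 leaves little room for a gene that is low in most tumours. All 5 values were above 7.10 for 144 of the 300, whose levels differed within the range above that limit.

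The most frequent pattern was low in tumour 2 and higher in the rest, with 53 probe sets and 23 steps. Next came high in tumour 4 alone (41 and 21), low in tumour 1 alone (28 and 17), and high in tumours 3, 4 and 5 (23 and 7). High in tumours 1, 3 and 4 held 20 probe sets, high in tumours 3 and 4 held 17, and high in tumour 2 alone held 16. Tumours 5 and 1 rarely stood alone above the rest, with 7 and 3 probe sets and 0 steps.

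**Figure D2:**
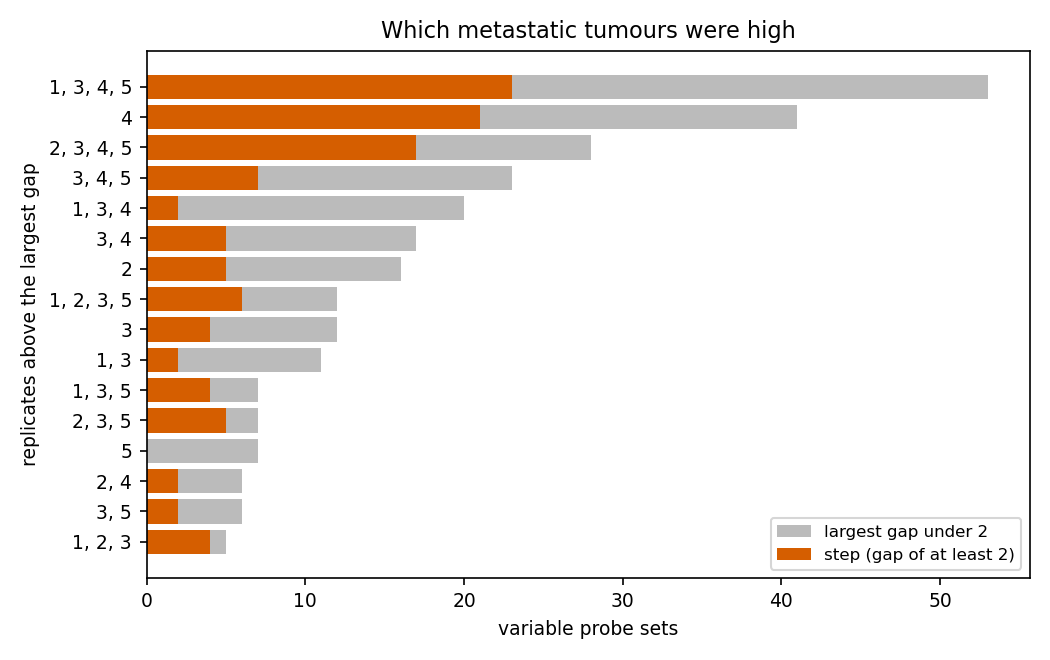
Number of variable probe sets (horizontal axis) by the replicates that lay above the largest gap between the 5 sorted values, for patterns of at least 5 probe sets. Orange marks gaps of at least 2 on the log2 scale; the 2 longest bars are tumours 1, 3, 4 and 5 together (53) and tumour 4 alone (41).

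The member with the largest SD was DLA88, the dog's classical MHC class I heavy chain, which presents peptides to cytotoxic T cells. Its values were 12.75, 3.46, 10.70, 13.10 and 11.37 in tumours 1 to 5, so that 4 tumours were high and tumour 2 stood 7.24 below the next. A second DLA88 probe set did not repeat that gap, at 12.35, 10.58, 12.04, 13.14 and 10.97. The first probe set also had an SD of 4.38 over the 8 non-metastatic tumours, the samples that the rule did not use. Why the probe sets differ was not tested.

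FABP4, the fatty acid carrier of adipocytes and some macrophages and endothelial cells, read 8.11, 11.87, 8.43, 3.59 and 11.69. Tumours 2 and 5 were high, 1 and 3 intermediate, and 4 not above the reporter limit, a span of 8.28 (311-fold). Of the other adipocyte markers the scavenger receptor CD36 was in the variable set, at 7.15, 9.25, 10.55, 7.05 and 9.43, with its lowest values in tumours 4 and 1. The 19 measured markers of the adipocyte list averaged 7.63, 7.84, 7.97, 7.2 and 8.41, and 6 were lowest in tumour 4 and 8 highest in tumour 5.

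TFPI2, a secreted inhibitor of plasmin and other serine proteases, read 5.25, 5.45, 11.27, 11.84 and 10.37. SERPINE2, an inhibitor of thrombin, plasmin and urokinase, read 6.21, 6.49, 10.45, 12.40 and 10.71. Both protease inhibitors were not above the reporter limit in tumours 1 and 2 and far above it in tumours 3, 4 and 5, with spans of 96.3-fold and 73.0-fold, and second probe sets of both showed the same division (TFPI2 5.32, 5.19, 10.08, 11.02 and 9.22). TIMP3, the matrix-bound inhibitor of metalloproteinases, was divided otherwise, at 12.21, 10.13, 11.44, 8.75 and 8.53, with tumours 4 and 5 lowest. CHI3L1, a chitinase-like glycoprotein of macrophages and mesenchymal cells, was low in tumours 1 and 2 (6.17 each) and read 11.06, 10.72 and 8.57 in the others.

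**Figure D3:**
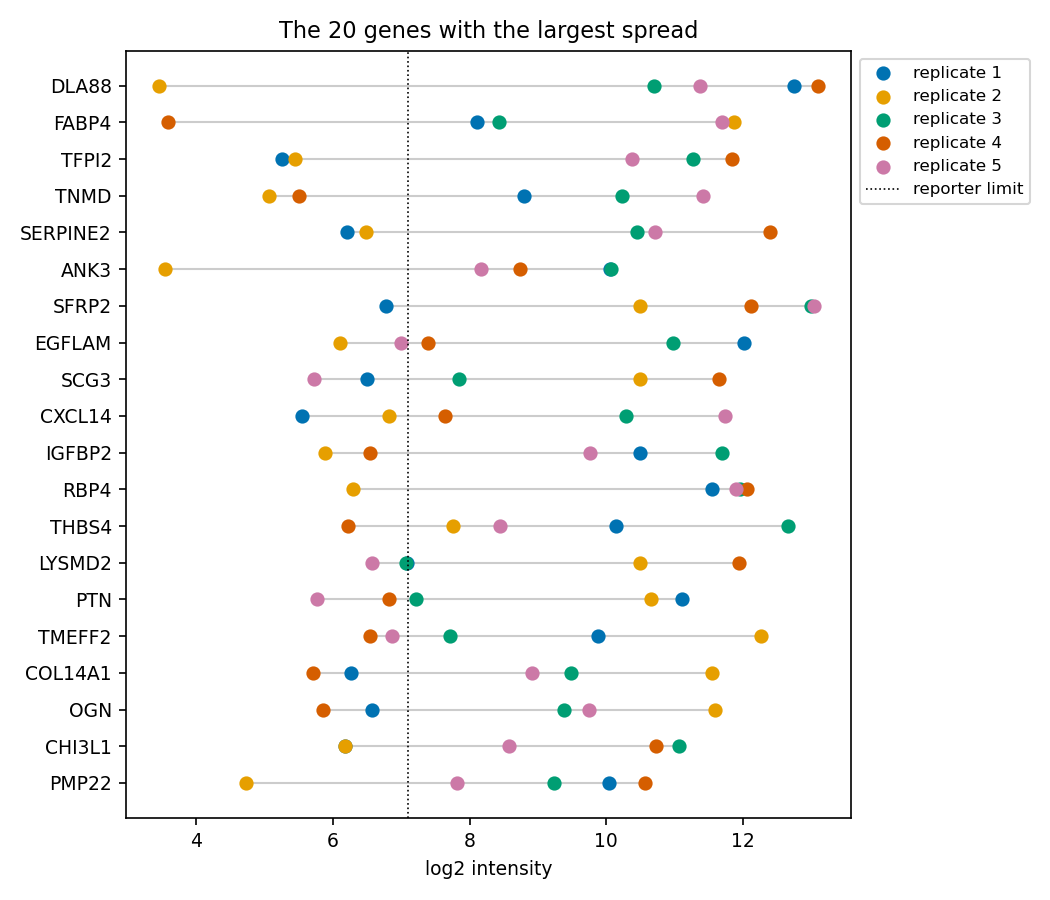
Log2 intensity of the 20 genes with the largest SD, each at its probe set of largest SD, with 1 point for each of the 5 tumours and the reporter limit of 7.10 as a dotted line. DLA88, RBP4 and PMP22 have tumour 2 apart on the left, while TFPI2 and SERPINE2 divide tumours 1 and 2 from tumours 3, 4 and 5.

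Several members followed a single low tumour. RBP4, the plasma carrier of retinol, read 11.54, 6.30, 11.96, 12.06 and 11.90, and without tumour 2 its SD was 0.23 in place of 2.50. PMP22, a myelin protein of Schwann cells that other mesenchymal cells also make, read 10.04, 4.73, 9.23, 10.57 and 7.81. ANK3, an adaptor between membrane proteins and the spectrin skeleton, read 10.05, 3.54, 10.07, 8.74 and 8.17. All 3 were on/off with tumour 2 low, and the second RBP4 and PMP22 probe sets also had tumour 2 lowest (6.80 and 6.33), while a second ANK3 probe set spanned only 8.38 to 9.23.

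SFRP2, a secreted Wnt antagonist of fibroblasts, was the clearest member low in tumour 1, at 6.78, 10.50, 13.00, 12.12 and 13.04. CYP1B1, a cytochrome P450 that metabolises oestrogens and polycyclic hydrocarbons, had 5.22, 8.80, 10.04, 9.70 and 9.47. SERPINF1, the secreted anti-angiogenic protein PEDF, had 6.83, 10.26, 11.52, 11.81 and 11.54. At these probe sets each was not above the reporter limit in tumour 1 and at least 8.80 in the others. A second SERPINF1 probe set read 8.24 in tumour 1, above that limit, and was also lowest there (11.41 to 12.67 in the others). Of 5 Wnt antagonists and ligands with a mean of at least 8, 4 were variable: SFRP2, FRZB, DKK2 and DKK3. They did not share a pattern, as FRZB was highest in tumour 5 (10.76 against 6.39 to 8.82), DKK2 in tumour 3 (10.40 against 7.65 to 9.14), and DKK3 was high in tumours 3 and 4 (11.59 and 11.57 against 9.33 to 9.58).

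Matrix genes formed the largest listed group among the members. Of 26 genes for matrix glycoproteins and proteoglycans with a mean of at least 8, 14 were in the variable set, where 4.14% of all genes were. The list's median SD was 1.09. The counts of variable genes in every other list here are to be read beside the same 4.14%. THBS4, a pentameric matrix protein of tendon and muscle, read 10.14, 7.76, 12.66, 6.22 and 8.44, and was highest in tumour 3. OGN, a small leucine-rich proteoglycan, read 6.57, 11.59, 9.38, 5.86 and 9.74, and COL14A1, a fibril-associated collagen, read 6.27, 11.54, 9.48, 5.71 and 8.91. These 2 ran in parallel, with tumours 2, 3 and 5 high and tumours 1 and 4 not above the reporter limit at these probe sets. A further COL14A1 probe set read 7.68 and 7.99 in tumours 1 and 4, above the limit and still lowest. FBN2, the fibrillin of developing elastic fibres, was the opposite in tumours 1 and 2, at 11.54, 6.72, 9.87, 7.10 and 9.70.

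The matrix proteins did not vary as 1 block. COMP, the cartilage oligomeric matrix protein, stood out in tumour 3 alone (11.51 against 8.12 to 8.64), and SPP1, the phosphoprotein osteopontin of macrophages and bone, was high in tumours 3 and 4 (11.06 and 12.38 against 7.96 to 8.83). LUM, the proteoglycan lumican, was lowest in tumour 1 at 9.72 and lay between 12.11 and 12.92 in the rest. Over the whole list of 34 measured genes, 13 were highest in tumour 3 and 11 in tumour 2, and 11 were lowest in each of tumours 1 and 4. Of 17 genes for fibrillar collagens and their cross-linking enzymes 1 was variable, a share near that of all genes, with a median SD of 0.52 over the list. It was COL3A1, through 1 probe set (6.83, 9.61, 9.18, 9.22 and 10.19), while another read between 12.13 and 13.54. None of 12 basement membrane genes was variable, with a median SD of 0.42.

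Growth factors and their binding proteins included 4 members of 12, where 4.14% of all genes were members. IGFBP2, which binds insulin-like growth factors, read 10.49, 5.88, 11.69, 6.55 and 9.76, low in tumours 2 and 4. IGF1 itself read 8.18, 9.88, 9.04, 5.87 and 9.94, low in tumour 4 only. PDGFD, a ligand of the PDGF beta receptor, read 9.90, 7.25, 9.61, 6.73 and 7.85, and PDGFRB, that receptor, read 10.40, 6.80, 9.25, 7.10 and 7.99. Ligand and receptor were thus both highest in tumour 1, then tumour 3. PTN, the heparin-binding growth factor pleiotrophin, read 11.10, 10.65, 7.21, 6.82 and 5.77, and it divided tumours 1 and 2 from the others. DDR1, a collagen-activated receptor kinase, was at 10.85 in tumour 4 and between 7.43 and 7.82 elsewhere, and NTRK2, a neurotrophin receptor, at 10.51 in tumour 2 and between 7.48 and 8.79 elsewhere.

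The remaining genes of largest SD had unlike patterns. TNMD, the tendon protein tenomodulin, read 8.79, 5.06, 10.23, 5.50 and 11.42. CXCL14, a chemokine of fibroblasts and epithelia, read 5.55, 6.82, 10.29, 7.64 and 11.73. Both were highest in tumour 5, then tumour 3. EGFLAM, the matrix protein pikachurin, read 12.01, 6.11, 10.97, 7.39 and 7.0, high in tumours 1 and 3. TMEFF2, a transmembrane protein with follistatin-like domains, was highest in tumour 2, at 9.88, 12.27, 7.71, 6.54 and 6.87. CD34, the sialomucin of vessels and some fibroblasts, was also highest there (8.19, 10.71, 7.98, 6.43 and 7.14), as was the matrix protein LTBP4 (11.10 against 7.76 to 8.45), of which a second probe set was flat (8.05 to 8.29).

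Positional transcription factors were few among the members, since most had a mean below 8. HOXA5 read 7.09, 9.67, 7.76, 7.06 and 11.31, high in tumours 2 and 5. Over 21 measured HOX genes 12 were highest in tumour 5 and 10 lowest in tumour 4, and 9 were not above 7.10 in any tumour. MEIS2, a HOX cofactor, read 9.78, 10.38, 6.79, 6.35 and 10.52, with tumours 3 and 4 lowest. A second MEIS2 probe set was also lowest in tumours 3 and 4, at 7.22 and 7.11.

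Immune transcripts gave a different order of the tumours from matrix transcripts. Of 18 macrophage and myeloid genes with a mean of at least 8, 7 were variable (median SD 0.95), or 3 with a mean limit of 7. CD163, a haemoglobin scavenger receptor, read 7.96, 5.78, 9.62, 9.23 and 7.55. MRC1, the mannose receptor, read 8.06, 6.05, 9.25, 9.62 and 7.51, and CD14, a coreceptor for lipopolysaccharide, read 8.24, 7.75, 10.01, 10.74 and 8.22. Tumours 3 and 4 were highest and tumour 2 lowest for each, and over all 25 measured macrophage genes tumour 3 was highest for 13, tumour 4 for 9, and tumour 2 lowest for 17. The list averaged 8.69, 8.16, 9.68, 9.59 and 8.40.

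Genes of MHC class II, which present peptides to helper T cells, were variable in 6 of 10 cases. The count was 1 without tumour 5, 3 after quantile normalization of the arrays and 0 with a mean limit of 7. DLA-DQA1 read 8.99, 7.22, 9.74, 9.71 and 6.94, DLA-DQB1 11.02, 9.13, 11.51, 11.83 and 9.23, and the peptide-loading chain DLA-DMA 8.91, 7.73, 9.84, 10.32 and 7.56. At these probe sets tumours 2 and 5 were low and 1, 3 and 4 high in each. A second DLA-DMA probe set was more even, at 9.6, 9.31, 10.0, 10.33 and 9.68, with tumour 5 above tumour 1. Of these 6, CTSS and CD74 also stand in the macrophage list. The complement subunits C1QA (10.50, 8.80, 11.40, 11.66 and 9.15) and C1QC (10.54, 8.57, 11.20, 11.68 and 9.18) were also low in tumours 2 and 5, and the complement list held 4 variable genes of 13. CLU, the secreted chaperone clusterin, read 11.68, 8.71, 11.56, 13.00 and 10.48, and CD59, which blocks the membrane attack complex, was highest in tumour 4 (10.82 against 6.67 to 8.43).

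Interferon-induced genes placed tumour 1 first, with 4 variable of 10 and 2 without tumour 1. MX1, an antiviral GTPase, read 10.99, 6.76, 9.34, 8.76 and 7.86. ISG15, a ubiquitin-like modifier, read 11.48, 7.09, 9.26, 10.22 and 7.31, and the RNA-sensing synthetase OAS1 read 9.85, 7.07, 8.91, 8.51 and 7.31. Tumour 1 was highest and tumours 2 and 5 lowest for all 3, and over the 26 measured genes of the list tumour 1 was highest for 18, tumour 2 lowest for 12 and tumour 5 for 11. CXCL10, an interferon-induced chemokine that draws T cells, read 10.71, 8.35, 8.18, 10.60 and 5.90, where tumours 1 and 4 were high and tumour 5 was not above the limit. T cell and NK cell markers contributed 0 variable genes of 4 with a mean of at least 8, and 10 of 23 measured were not above 7.10 in any tumour. Among other chemokines CCL2, which draws monocytes, was highest in tumours 3 and 1 (11.14 and 10.71 against 7.68 to 9.16).

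Immediate early genes, whose transcripts rise within minutes of a stimulus or of tissue handling, held 6 members of 15. FOS read 7.88, 6.71, 10.61, 11.17 and 10.34, and NR4A1 read 7.60, 6.20, 9.56, 8.22 and 10.37. CCN1 read 8.60, 10.52, 11.65, 12.02 and 12.05, and CCN2 was highest in tumour 3 (11.30 against 7.81 to 8.77). Over 25 measured genes tumour 2 was lowest for 14. How long each biopsy was handled is not given in the sources used here. Among 23 hypoxia and glycolysis genes 2 were variable (8.7%), not far from the 4.14% of all genes. They were the glucose transporter SLC2A3 (9.59, 6.69, 11.21, 11.02 and 9.92) and the glycolytic regulator PFKFB3 (8.91, 7.30, 10.65, 9.36 and 8.94). Both were lowest in tumour 2, as were 20 of the 33 measured genes of that list.

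Contractile genes included 5 of 13 in the smooth muscle and pericyte list, and 3 without tumour 3 or with a mean limit of 7. MYLK, the myosin light chain kinase, read 6.61, 7.34, 9.09, 11.12 and 8.59, highest in tumour 4. The enteric actin ACTG2 read 6.38, 7.76, 10.65, 7.95 and 9.86, highest in tumour 3. A second probe set spanned less, at 9.91 to 10.98 (SD 0.40), and was also highest in tumour 3 and lowest in tumour 1. Of 26 measured skeletal muscle genes 16 were highest in tumour 5, 4 in tumour 2, and 3 each in tumours 3 and 4. The list averaged 8.30 in tumour 5 against 6.66 to 6.95 elsewhere. The fast myosin MYH2 read 9.28 in tumour 5 and 3.94 to 4.53 in the rest, the slow troponin TNNT1 10.51 against 4.37 to 4.86, and the light chains MYLPF 10.25 against 5.50 to 5.86 and MYL2 10.10 against 5.76 to 6.0. These 4 had means under 8, so the rule left them out, and they were picked once their values were known. The myogenic factor MYOD1 was not above the limit in any tumour (5.79 to 6.12), and MYOG read 7.74 to 7.97. The skeletal actin ACTA1 was a member at 8.86, 8.29, 11.44, 9.35 and 11.30, through a probe set of a type that can bind related transcripts, whereas another read 10.39 in tumour 5 and 7.86 to 8.07 elsewhere.

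**Figure D4:**
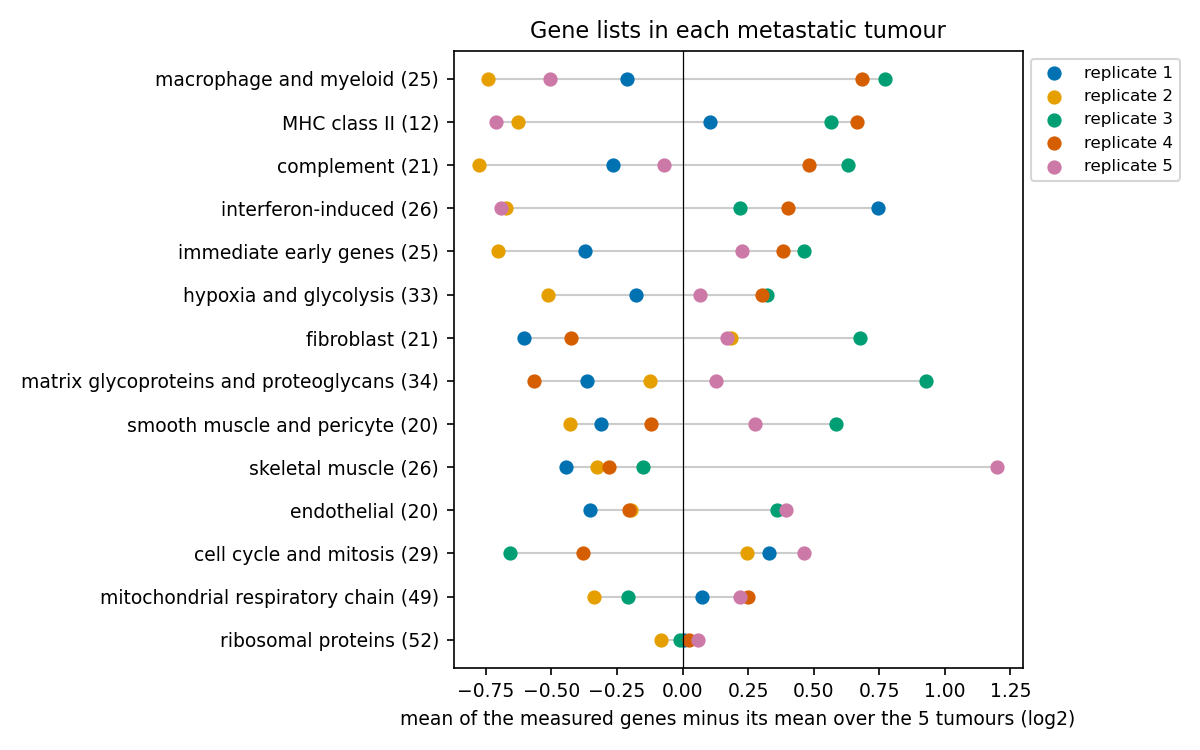
Mean log2 intensity of the measured genes of 14 lists in each tumour, minus the mean of the 5 tumours (number of genes in brackets). Tumours 3 and 4 are highest for macrophage and MHC class II genes, tumour 1 for interferon-induced genes and tumour 5 for skeletal muscle genes, and the 5 tumours nearly coincide for ribosomal proteins.

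A group of the members were neighbours in the genome, a property that the rule did not use. When 5152 genes with a mean of at least 8 were put in the order of the RefSeq annotation of the dog (each at its probe set of highest mean), 18 genes in a row from USP8 to CCNB2 were compared between tumours. The ends were set after the values were seen. The mean limit counts tumour 4 itself, so some of the 18 passed it only through tumour 4, such as DMXL2 (7.09 to 8.02 in the others). That raises the figures given next. Tumour 4 was the highest of the 5 for 17 of the 18, where it was highest for 26.0% of all 5152. The median difference of tumour 4 from the median of the other 4 tumours was 2.88 (7.36-fold), against 0.08 over all ordered genes, and 16 of the 18 lay at least 1 above them, where 6.89% of all did. Of the 18, 13 lay at least 2 above, where 1.20% of all did. Those 13 were 13 of the 62 ordered genes that passed that difference in tumour 4. The other 4 tumours had medians between -0.32 and -0.06 over the same genes.

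The difference began at USP8, a deubiquitinase of endosomes, with 9.27, 9.23, 9.41, 12.19 and 8.87. The gene ordered before it, COPS2, a subunit of the signalosome, read 10.58, 10.23, 10.12, 10.56 and 10.33. SPPL2A, an intramembrane protease, read 8.22, 6.77, 8.22, 11.34 and 7.80, and DMXL2, a regulator of the vacuolar ATPase, 7.41, 7.09, 7.37, 11.68 and 8.02. In these 3 genes of the stretch tumour 4 lay at least 2.94 above the median of the rest, and for SPPL2A tumour 2 was lowest, with a difference of -1.45 from the median of the other 4. MAPK6, an atypical MAP kinase, read 10.05, 9.72, 9.62, 12.67 and 9.32. ARPP19, an inhibitor of the phosphatase PP2A at mitosis, read 8.81, 8.78, 8.07, 12.25 and 8.98, and MYO5A, a vesicle-carrying myosin, 7.74, 7.88, 9.25, 11.64 and 8.22. Further along, the ER-phagy receptor CCPG1 read 9.02, 8.86, 9.93, 11.97 and 8.91.

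ADAM10, the sheddase that cleaves Notch and cadherins, read 10.18, 9.57, 9.77, 12.33 and 9.75. Beyond it the differences were smaller: SLTM was 1.65 above the others, the ubiquitin ligase RNF111 2.27 and the mitotic cyclin CCNB2 1.47. GTF2A2, the next ordered gene, was 0.40 below them. CCNB2 read 8.67, 8.94, 7.81, 10.27 and 9.20, and among 29 measured cell cycle genes it was the only 1 highest in tumour 4, which was the lowest tumour for 12 of them. The exception inside the run was LOC442976, at 12.16, 12.12, 11.60, 12.08 and 12.05. MINDY2 was only 0.78 above at its probe set of highest mean, with tumour 5 close to tumour 4 (9.53 and 9.58). Further MINDY2 probe sets lay 2.24 and 2.43 above, at 9.99 and 8.97 in tumour 4 against 7.30 and 6.39 in tumour 5.

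SCG3 and LYSMD2 stood apart within the run. SCG3, the secretory granule protein secretogranin III, read 6.50, 10.49, 7.84, 11.65 and 5.73. LYSMD2, which carries a LysM domain, read 7.09, 10.49, 7.07, 11.94 and 6.57. Tumour 2 was high beside tumour 4 for these neighbours alone among the 18, and both belong to the 20 genes of largest SD.

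All probe sets of the 18 genes were also read. Of these 50, including those with low means, 48 were highest in tumour 4 and 46 were at least 1 above the median of the others (median 2.50). The 50 include the 18 probe sets with which the ends of the run were set. These counts therefore repeat part of that choice and are description only. RefSeq lists 55 protein-coding genes from USP8 to CCNB2. Of the 25 that were measured with a mean below 8, 14 were highest in tumour 4 and 9 lay at least 1 above. Their median difference was 0.45, smaller than that of the 18 genes that passed the limit. The tropomodulins TMOD2 and TMOD3 were among these, at 9.28 and 8.50 in tumour 4 against 4.69 to 7.01 and 5.34 to 5.59, and the ubiquitin ligase NEDD4 read 9.48 against 5.43 to 7.16. Of the same 25, 15 were not above 7.10 in tumour 4. Windows of 15 consecutive ordered genes had medians of at most 0.89, 0.89, 0.73 and 1.03 in tumours 1, 2, 3 and 5, and the highest window of tumour 4, centred on LYSMD2, reached 3.0. DNA was not measured, so copy number in this stretch was not tested.

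**Figure D5:**
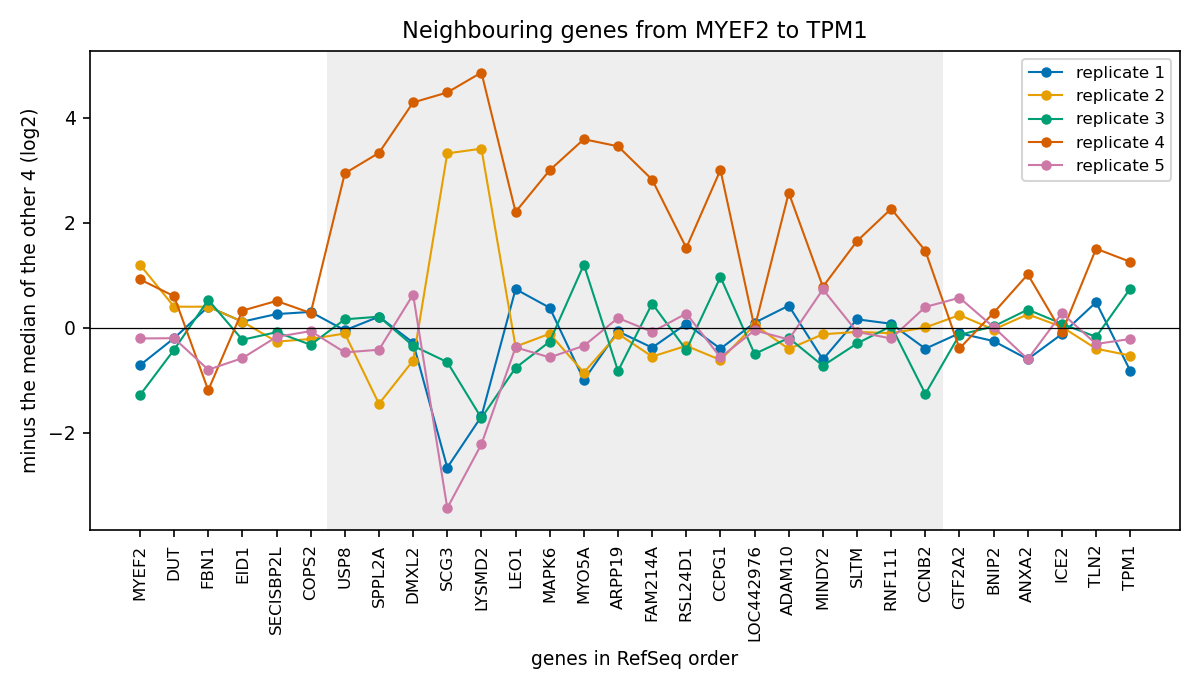
Difference of each tumour from the median of the other 4 (log2) for 30 neighbouring genes in RefSeq order, with the 18 genes from USP8 to CCNB2 shaded. Tumour 4 leaves the others at USP8, peaks at LYSMD2 (4.86), touches them at LOC442976 and lies below them at GTF2A2, and it is above them again at ANXA2, TLN2 and TPM1. Within the shading tumour 2 is high beside it at SCG3 and LYSMD2.

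A second, weaker stretch was that from KIF1C to RNASEK, with 9 ordered genes of which 3 were members, its ends again set with the values known. Tumour 4 was highest for 8 of the 9, where it was highest for 26.0% of all ordered genes, with a median difference of 1.98. Genes outside these ends were raised in it too, such as MED31 before them (1.72) and PHF23 after them (1.27). KIF1C, a kinesin, read 8.36, 10.63, 8.55, 10.86 and 8.71, and SPAG7 read 9.01, 11.04, 9.35, 11.16 and 9.01. In these 2 tumour 2 was raised nearly as far as tumour 4. PFN1, the actin-binding profilin, read 12.65 in tumour 4 against 10.19 to 10.97. PSMB6, a catalytic proteasome subunit, read 12.65 against 10.49 to 11.44. Tumour 2 was next highest for both (10.97 and 11.44). Over the 9 genes tumour 2 had a median difference of 0.62 (-1.165 to 2.0), and 3 genes lay at least 1 above. A second KIF1C probe set was flat, at 9.29 to 9.50. The window of lowest median in tumour 5 was centred on HLA-DRB1 (-1.18), among the class II genes described above, which are also neighbours.

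The stable set consisted of unlike kinds of genes. Of its 300 probe sets 201 (67.0%) had identifiers that begin with CfaAffx, against 42.4% of all 8283 and 39.3% of the variable set. What part this class of probe sets has in the small spread was not tested. The smallest spread of all was that of MAP1A, a microtubule-associated protein of neurons, at 9.90, 9.94, 9.93, 9.91 and 9.92. USP20, a deubiquitinase, read between 8.26 and 8.31, and the kinase CSNK1D between 8.79 and 8.85. The transcriptional cofactor LDB1 read between 8.95 and 9.02, and the vitamin B6 kinase PDXK between 8.77 and 8.85. A PDXK probe set of higher mean was not flat, at 8.52, 9.75, 9.29, 9.60 and 8.95 (SD 0.50). LOC609137 and LOC607191 were flat at a high level, 12.82 to 12.86 and 12.40 to 12.47. The remaining genes of the 12 with the smallest spread were GALR2, ARHGEF10, CENPA, MLXIP and LPIN3, with SDs between 0.025 and 0.032.

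GALR2, a galanin receptor of neurons, read 8.05 to 8.10 in the 5 tumours. The cardiac peptide gene NPPB (8.23 to 8.32), the olfactory receptor OR9Q3 (8.13 to 8.21) and the channels TRPC7 (8.28 to 8.38) and KCNB2 (10.08 to 10.19) were also stable. These last 4 were also picked once their values were known. Their levels are not shown to be signal from the named transcript, since the reporter limit describes other probes. Flat members also occurred in lists whose other genes differed: CENPA, the centromeric histone, read 8.85 to 8.93 while the cell cycle list had a median SD of 0.65, and TTN, the giant sarcomere protein, read 8.13 to 8.28 in the tumours in which MYH2 and TNNT1 differed widely. CDH5, the endothelial cadherin, read 8.26 to 8.38, whereas PECAM1, another endothelial gene, read 7.67, 9.20, 10.04, 8.27 and 9.84.

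Ribosomal protein genes were the only list with more than 2 stable genes: 10 of 49, where 5.32% of all genes had a stable probe set, and 0 of 49 were variable. With a mean limit of 7 the stable set held 6. Examples were RPL6 (12.13 to 12.26), RPS12 (12.84 to 12.96), RPS26 (13.27 to 13.43) and RPL35 (12.61 to 12.77). These probe sets lay near the top of the scale, where the highest value in the table was 14.33, and the part that saturation could play was not tested. The list of reference genes held 2 stable ones, RPS19 and RPL13A, which are themselves ribosomal. Other housekeeping machinery sat between the sets: of 49 genes of the mitochondrial respiratory chain 0 were variable and 0 stable (median SD 0.36), and the same held for 34 translation factors (0.35). Of 29 proteasome genes 1 was variable, the assembly chaperone PSMD10, at 9.44, 6.55, 9.31, 9.84 and 9.67. Its second probe set was also lowest in tumour 2 but spanned only 7.87 to 9.02. None of 23 cell cycle genes was variable (1 without tumour 4), although the list averaged 9.23, 9.15, 8.25, 8.52 and 9.36.

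Of the variable genes 114 had another probe set with a mean of at least 8. In 53 of them that probe set was itself a member, chosen for its SD, so its spread is part of the description (median SD 1.12 over the 114, 5 of them under 0.2). The other 61 were not members. Of these, 51 (83.6%) had the same highest tumour as the member and 45 (73.8%) the same lowest, where 71.7% and 67.4% of 2151 genes did so between their own probe sets, and 6 of 106 such stable genes had a second member. For the 106 stable genes the other probe set had a median SD of 0.20, against 0.31 over all. Of the 106, 51 were under 0.2, 10 at 0.5 or more and 0 at 1 or more. The largest was ZBTB4 at 0.99, with 8.31 to 10.56. The other probe set had the same highest tumour in 24.5% of the 106 and the same lowest in 30.2%. Probe sets of a gene share the tumours, so they check the probes and not the tumours.

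The same probe sets were then read in the 8 non-metastatic tumours, which the rule did not use. There the variable set had a median SD of 0.85, the stable set 0.27 and all 8283 probe sets 0.33. An SD of at least 1 was reached by 109 of the 300 variable probe sets (36.3%) and 1 of the 300 stable ones (0.333%), where 3.10% of all did. With non-metastatic replicates 5 to 8 alone, the medians were 0.63, 0.097 and 0.21. They were lower than over all 8 in each set, for a reason that was not tested. The SDs over all 8 are to be read with that limit. TFPI2 had an SD of 0.78 there over all 8, RBP4 0.79 and PMP22 0.72, whereas FABP4 had 2.28, TNMD 2.42 and CXCL14 2.02.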

How the data were processed

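Total RNA of untreated tumours was labelled with a 1-cycle 3′ kit and read on an Affymetrix canine array, per the labels' protocols. The authors deposited 1 table of log2 intensities, a scale inferred from its values. Its background correction and normalization were not stated in the sources. Values were used as deposited. Gene symbols were those of GEO's platform annotation, which can be old: 439 probe sets with several symbols and 13332 with none were left out. The gene identifiers of 94.6% of named probe sets were found in RefSeq (assembly UU_Cfam_GSD_1.0), used for gene order only. Spread was the SD over 5 tumours. No p-value was computed, since the rule chose members by their values. Members, 49 gene lists and the naming rule (the 20 genes of largest and 12 of smallest SD, up to 4 per list and set, 3 per pattern of high tumours, 3 probe sets on each side of a rank limit) were chosen with earlier results of these data known. Genes outside that rule, such as those of the neighbouring stretches, were named with their values known. A list's level is the mean over its measured genes, each at its probe set of highest mean. A list of X-inactivation and Y-linked genes had 0 measured genes. The scripts were tested on simulated data. Planned promoter and protein features were not analysed here. The number of arrays limits the precision. Python 3.11.15, numpy 2.4.6, pandas 2.3.3 and matplotlib 3.10.9 were used. Alternatives were other normalizations, mean limits, measures of spread and step limits, and leaving out each tumour.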

Additional observations from a re-analysis of the deposited data

Results flagged for a closer look

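In a group of 5, a tumour was singled out where its gap to the nearest other exceeded 0.71 of the whole range. Array measures, list levels, the 20 genes of largest SD and the genes from USP8 to CCNB2 were examined. For groups not chosen by their values, chance gives this in about 1 of 20. It was met by 6.15% of all 8283 probe sets and 9% of the variable set. The skeletal muscle list was high in tumour 5 (0.822 of the range). DLA88 (0.751) and RBP4 (0.91) were low in tumour 2. Tumour 4 was high for USP8 (0.837), DMXL2 (0.797), MAPK6 (0.782), ARPP19 (0.782), FAM214A (0.764), RSL24D1 (0.718), ADAM10 (0.779), SLTM (0.797) and RNF111 (0.909). LOC442976 was low in tumour 3 (0.804). The members were chosen for their spread, and the ends of the run were set with tumour 4 seen to be high. Their flags are therefore description and carry no support. Neighbouring genes also share the tumours.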

How the results depend on the processing

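Spread rests on 5 tumours with 1 array each, so tumour and measurement error cannot be separated. The variable set shared 275 probe sets with the set after quantile normalization, 295 after centring, 269 with the range and 255 with a floor. It shared fewer with a mean limit of 7 (171) or 9 (144), with the median absolute deviation (167) and with 1 probe set a gene (180). The stable set shared 140 after quantile normalization, 137 and 104 with limits of 7 and 9, and 111 with the median absolute deviation. Leaving out 1 tumour at a time left 199 to 251 variable probe sets (lowest without tumour 2) and 169 to 204 stable ones (lowest without tumour 2). Steps numbered 224 at a gap of 1.5 and 30 at 3, and 116 to 174 without 1 tumour (highest without tumour 5). On/off steps numbered 22 at a gap of 3, 115 with the reporter maximum of 13.43, which belongs to the spiked cre control, and 68 with the maximum without cre (7.77), an alternative chosen after seeing the data, and 49 to 80 without 1 tumour. With a mean limit of 7 the variable set held 3 macrophage genes, 0 of MHC class II, 3 fibroblast and 3 smooth muscle genes, and the stable set held 6 ribosomal protein genes. After quantile normalization it held 3 of MHC class II. Without 1 tumour the counts were 5 to 10 macrophage, 1 to 6 MHC class II (1 without tumour 5), 10 to 15 matrix, 5 to 7 fibroblast, 3 to 5 smooth muscle (3 without tumour 3), 4 to 6 immediate early, 2 to 5 interferon (2 without tumour 1), 4 to 6 complement, 5 to 8 chemokine (8 without tumour 1) and 0 to 1 cell cycle genes (1 without tumour 4), with 7 to 10 stable ribosomal ones. The median SD of the stable set in the non-metastatic tumours was 0.27, and 0.097 in replicates 5 to 8. The run from USP8 to CCNB2 had a median of 2.55 with a mean limit of 7, 2.66 after quantile normalization and 2.64 to 2.94 without 1 other tumour, and the highest window was 3.33 with 11 genes and 2.57 with 21, all chosen after seeing the data. Of 1022 alternative SDs of 146 named genes, 16 moved by at least the SD itself. An SD cannot fall by more than itself, so a loss of spread was not counted as moved. RBP4, for example, fell from 2.50 to 0.23 without tumour 2 and was not counted. Nothing on the stability of the SDs is read from the 16. Without tumour 2, 34 of 225 variable genes had an SD more than 1.5 times smaller, and without tumour 4, 31. No paired analysis was possible because no comparison between groups was made. The planned promoter alternative was not run.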
